A study of Mus musculus with 10 samples.

Results

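Atoh1 encodes the basic helix-loop-helix factor required for hair cells to form, and its locus was followed here through every peak deposited within 500 kb of the gene in the mouse cochlear duct epithelium at E13.5 of embryonic life. The gene is 2121 bp long and lies on the plus strand of chromosome 6 (mm10; gene positions from the RefSeq table of GRCm38.p6). All peaks whose summit fell in this span were taken, which gave 575 of 1384484 autosomal peak lines in 8 libraries. ATAC-seq, in which the Tn5 transposase cuts accessible DNA, was run without sorting on duct epithelium, separated by enzymes per the extraction protocol although the titles read whole organ, of SoxC double knockout embryos (2 libraries) and of wildtype embryos (3 libraries). CUT&RUN, a cleavage assay directed by an antibody, gave Sox4 peaks in 3 replicates of progenitors sorted for a p27kip1-GFP reporter from embryos labelled wildtype (the titles call the assay ChIP), with no control library used here. The ATAC titles give the knockout genotype without naming the deleted genes or the Cre, and a single-cell title of the same series names Pax2cre and SoxC fl/fl alleles. The 2 single-cell tables carry no gene names, so Atoh1 RNA was not analysed here. Nothing in the labels says whether replicates came from separate animals or pools, so a p-value measures only the spread between these libraries.

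Atoh1 protein pairs with E proteins on E-box sites and activates its own gene through an enhancer on the 3′ side, which is also widely used to drive reporter genes in transgenic mice. Effectors of Notch signalling in the Hes and Hey families repress Atoh1, which keeps neighbouring cells from becoming hair cells. SoxC factors, the family of Sox4, Sox11 and Sox12, are transcription factors with an HMG box that are active in neural and sensory progenitors. The labels name no Atoh1 reporter in these embryos.

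Knockout replicate 1 stood apart from the other 4 ATAC libraries at Atoh1, in a peak beyond the gene that is described below with and without that library. The ATAC lists held 293665 and 261289 autosomal lines in the knockout and 196536, 166874 and 196345 in wildtype libraries, and the Sox4 lists 158444, 72417 and 38914. The lists hold no read totals, so the depth behind a peak was unknown; the labels give at least 20000000 read pairs for each Sox4 library. Each line gives 1 summit with its fold over the local background of the same library and its -log10 p, both as the authors' peak caller gave them. The median fold of a list was 3.78 and 3.49 in knockout and 4.11, 3.73 and 3.30 in wildtype, whereas the median -log10 p was 22.4 and 12.8 in knockout and 8.77, 6.60 and 5.00 in wildtype. The -log10 p values of the knockout lists were thus generally larger, and libraries were compared by rank. The names of the knockout lists also state calling settings that the wildtype names do not, so genotype and calling cannot be told apart in any comparison here.

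The sequence over the start site is shown because the wildtype summits fell inside it. It spans 250 bases before to 50 after the start (RefSeq, GRCm38.p6, chr6:64728875-64729174, plus strand), and capitals mark each match to CACGCG, a motif of the kind bound by Hes and Hey repressors, on either strand.
Atoh1 promoter: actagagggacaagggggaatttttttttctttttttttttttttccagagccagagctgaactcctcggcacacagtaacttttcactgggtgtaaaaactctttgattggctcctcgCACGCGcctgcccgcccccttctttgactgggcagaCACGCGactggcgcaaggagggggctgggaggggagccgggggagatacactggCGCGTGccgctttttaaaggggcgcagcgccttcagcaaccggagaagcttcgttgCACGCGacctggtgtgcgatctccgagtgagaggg
The CACGCG motif occurred 4 times in these 300 bases, 3 times as CACGCG and once as its reverse complement. At least 1 match was found in 9.47% of the 31396 autosomal promoters of the same length. The strongest summit of the gene start lay at base 151 in wildtype replicate 1, base 119 in replicate 2 and base 141 in replicate 3. The first 2 copies of the motif cover bases 120 to 125 and 156 to 161, so that the summits of wildtype replicates 1 and 3 lay between them and that of replicate 2 was 1 base before the first. No E-box of the form CANNTG occurred in this window, whereas 72.2% of promoters held one; this form takes in the E-boxes searched singly. The motif CACNAG, another site of Hes factors, matched once on the minus strand, and 42.4% of promoters held it. A Sox motif written as ACAAAG (18.6% of promoters) was absent, as was the form ACAATG (12.2% of promoters). The TATA box TATAAA was absent too (13.6% of promoters). A match is a run of letters only, and its absence says nothing of what binds.

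At the start site knockout replicate 1 had no listed peak, and that of knockout replicate 2 was lower in fold and rank than in wildtype. Knockout replicate 1 had no summit in the promoter window and none in the gene body. Its list held no line below a -log10 p of 3.98, against about 2.00 in the other ATAC lists, so a peak weaker than that would not show. Within 500 kb of Atoh1 this list held summits at folds as low as 2.08. Whether the strong signal beyond the gene in this library affected the calling of peaks over the gene was not tested. Knockout replicate 2 had a promoter summit 166 bp before the start with a fold of 3.52, at rank 119069 of its 261289 lines. The wildtype summits lay 100, 132 and 110 bp before the start with folds of 7.09, 6.70 and 5.11, at ranks 39293, 29496 and 37299. The fold and rank of knockout replicate 2 were thus below those of every wildtype library.

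Inside the gene the order of summits within a library differed. In knockout replicate 2 the strongest summit of the gene lay 399 bp into it, with a fold of 5.46 and a -log10 p of 38.1. The wildtype summits nearest to that position lay 427, 332 and 389 bp into the gene with folds of 4.19, 3.31 and 3.03, each weaker than the promoter summit of the same library. A further peak before the gene, in the neighbouring long non-coding gene Gm35851, was present in all 5 libraries. Its strongest summit lay 1178 and 1206 bp before the start in the knockout libraries (folds of 5.04 and 4.16) and 1172, 1196 and 1173 bp before it in the wildtype libraries (folds of 5.06, 4.16 and 3.42). The folds of this upstream peak overlapped between genotypes, and knockout replicate 1 had it while lacking any peak over the gene.

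For comparison at equal list length, the 50000 strongest summits of each ATAC library were widened by 250 bp both ways and merged into 65388 autosomal regions, of which 25 lay within 500 kb of Atoh1. Each region was ranked from 1 (strongest) to 65388 in each library by -log10 p, with regions without a peak at the last rank. The region over the start site (64728743 to 64729275) ranked 65388 and 51986 in knockout and 34621, 26122 and 31941 in wildtype. The ranks did not overlap, with a log2 rank ratio of knockout over wildtype of 0.93, where a positive value means further down the list in knockout (wildtype SD of log2 rank 0.21, n = 3). The exact permutation test over the 5 libraries gave p = 0.2 (two-sided), the smallest that 2 against 3 libraries allow. The rank of knockout replicate 2 here comes from the summit 399 bp into the gene, whose window reached the edge of the region. Without knockout replicate 1 the ratio was 0.70.

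**Figure D1:**
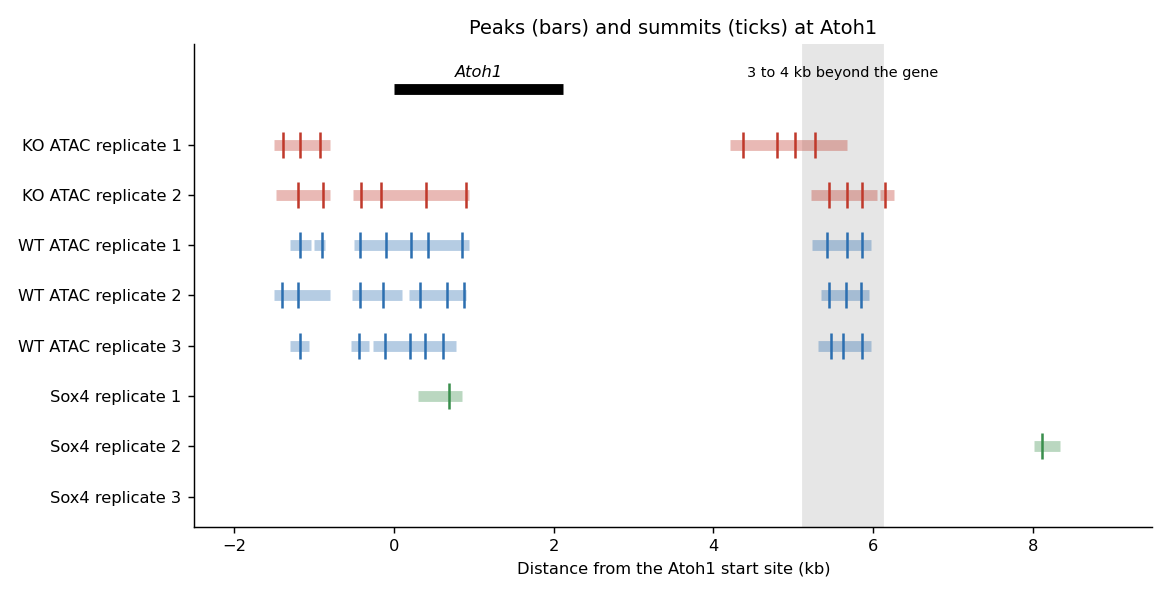
Peaks (bars) and summits (ticks) around Atoh1 in the 2 knockout ATAC, 3 wildtype ATAC and 3 Sox4 CUT&RUN libraries, by distance from the start site in kb; the grey band marks 3 to 4 kb beyond the gene. Knockout replicate 1 has no peak over the gene, and its peak beyond the gene begins 2083 bp after the gene's end, against 3100 to 3228 bp in the other 4 ATAC libraries.

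A peak overlapped the enhancer 3 to 4 kb beyond the gene in all 5 ATAC libraries, and in 4 of them the shape of this peak was alike. In knockout replicate 2 and in the wildtype libraries 1 peak with 3 summits began 3100, 3117, 3228 and 3186 bp beyond the gene and ended 3925, 3859, 3835 and 3851 bp beyond it. The first summit fell within 46 bp in these 4 libraries (64734551 to 64734597), the second within 50 bp (64734755 to 64734805) and the third within 18 bp (64734971 to 64734989). The highest fold of the 3 summits was 6.22 in knockout replicate 2 and 6.40, 4.94 and 6.18 in wildtype, so knockout replicate 2 lay inside the wildtype range.

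In knockout replicate 1 the peak over the enhancer had another position, width and strength. It ran over 1475 bp from 2083 to 3557 bp beyond the gene (64733328 to 64734802), with 4 summits 2255, 2672, 2902 and 3153 bp beyond it, none of them at the positions shared by the other libraries. Its -log10 p reached 889, at rank 959 of 293665 lines. The highest value at the enhancer elsewhere was 35.9 in knockout replicate 2 and 22.7, 11.7 and 16.5 in wildtype, at ranks 73394 in knockout replicate 2 and 51542, 53834 and 32589 in wildtype. Its fold did not stand out in this way: the 4 summits had folds of 6.97 to 8.17, and ranked by fold the strongest was at 57208. The lists hold no reads, so whether this signal comes from the locus itself or from another copy of the enhancer sequence was not tested.

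Fold and -log10 p rise together along each list, and the enhancer peak of knockout replicate 1 lay off that relation. The 501 lines nearest to its strongest summit in rank had a median fold of 18.5, with 5% of them at or below 12.4, and its own fold of 8.17 was the lowest of them. In the other libraries the strongest enhancer summit had a fold close to that of its neighbours in rank, 5.97 against a median of 5.38 in knockout replicate 2 and 6.40 against 6.72, 4.94 against 4.83 and 6.18 against 6.03 in wildtype. The nearest peaks to it in knockout replicate 1 ended 4999 bp below it and began 30112 bp above it. In the other libraries the peak over the gene ended 4279 bp (knockout replicate 2) and 4293, 4440 and 4528 bp (wildtype) below the enhancer peak. The gap on the gene's side was thus of like size in all 5 libraries, but in knockout replicate 1 it held the whole gene.

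**Figure D2:**
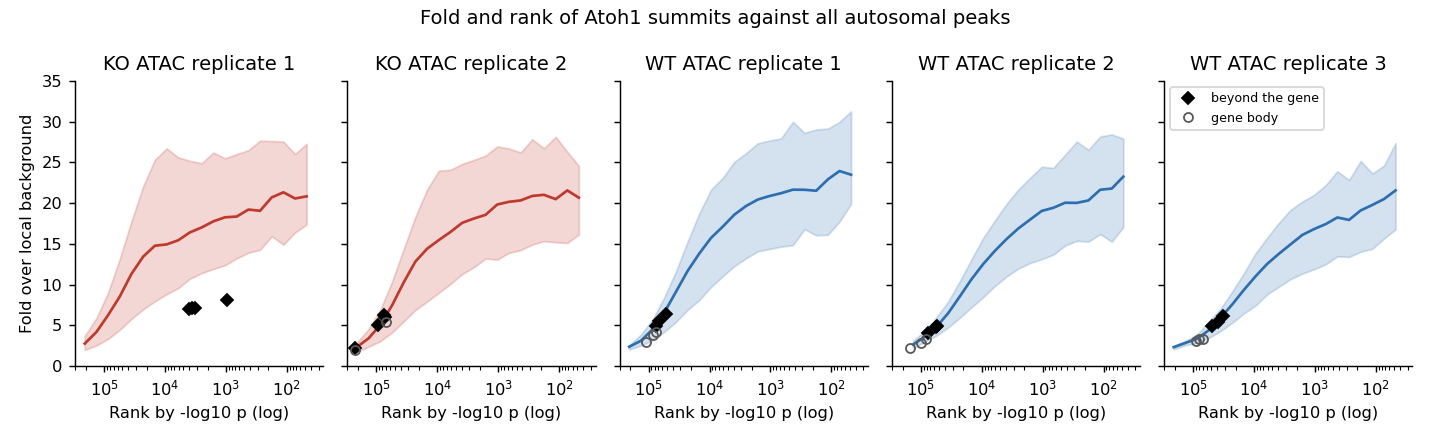
Fold over local background against rank by -log10 p (log axis, strongest at the right) in the 2 knockout and 3 wildtype ATAC libraries; the line is the median of all autosomal peaks in bins of rank and the band their central 90%. Diamonds are summits beyond Atoh1 up to 5 kb and open circles summits in the gene body: those of knockout replicate 1, at folds of 6.97 to 8.17, lie below the band, and in the other 4 libraries the enhancer summits lie in or near it.

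The ranks of the enhancer were set beside those of all regions. The enhancer region (64733250 to 64735239) ranked 951 and 52646 in knockout and 44240, 44921 and 28232 in wildtype. It was the only one of the 65388 regions that stood in the first 1000 of 1 ATAC library and beyond 25000 in each of the other 4, limits that were chosen after its ranks were seen and that describe it only. The best rank elsewhere was 29.7 times that of knockout replicate 1, and 5 regions reached this ratio, all led by knockout replicate 1. The others overlapped Dhx8, Mrpl37 and Dctpp1 or lay beside Gm40369, and each of them ranked at 2100 or better in knockout replicate 2, unlike the enhancer. The log2 rank ratio of knockout over wildtype was -2.44 (exact permutation p = 0.8, two-sided). It rests on knockout replicate 1: without that library the ratio was 0.40, and ranked by fold or with overlapping lines merged it was 0.43 and 0.77. In both of these settings the ranks no longer overlapped and the knockout ranks were the lower ones (exact permutation p = 0.2 each). The highest enhancer folds themselves were not lower in knockout, at 8.17 and 6.22, against 6.40, 4.94 and 6.18 in wildtype. With lines merged only the strongest summit of a peak was kept. The window of that summit in knockout replicate 1, 2255 bp beyond the gene, did not reach the 705-bp region. This library was then scored as without a peak, so the merged setting cannot show whether its enhancer was lower. Ranked by fold the region was 893 bp wide, and the window of the same summit did not reach it either. Only weaker summits of that peak were ranked there.

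Over the whole span, accessibility around Atoh1 was more often lower than higher in rank in the knockout libraries. Of the 25 regions, 16 (64%) had both knockout ranks below all 3 wildtype ranks, 1 had both above and 8 overlapped. Of all 65388 regions 30.4% were lower and 31.5% higher by the same rule. The Atoh1 regions had between 2 and 6 coding genes within 500 kb, against a median of 9.0 for all regions, and of the 24059 regions with at most 6 such genes 45.9% were lower and 16.2% higher. Ranked by fold, 13 regions around Atoh1 were lower and 6 higher, of 26, against 34.4% lower and 28.8% higher of all regions. The median log2 rank ratio was 0.30 around Atoh1 and 0.03 over all regions. No region reached an exact permutation p below 0.2, and after adjustment over the 25 regions the lowest p was 0.294.

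The count of lower ranks differed along the span. Between 100 and 300 kb beyond Atoh1 lay 11 regions, of which 9 were lower and 1 higher in knockout, with a median log2 rank ratio of 1.11. On the other side, before Atoh1, 3 of 7 regions were lower and none higher, with a median ratio of 0.25. Fold did not follow rank on this side: at most of these 7 regions both knockout folds were above all 3 wildtype folds. Among them was a region called lower, 161135 bp before the gene. Its folds were 6.96 and 6.17 in knockout and 5.81, 4.59 and 4.88 in wildtype. Between 300 and 500 kb beyond the gene, 2 of 4 regions were lower, 1 of them in Hpgds and 1 intergenic. Whether these shares differ from each other was not tested.

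**Figure D3:**
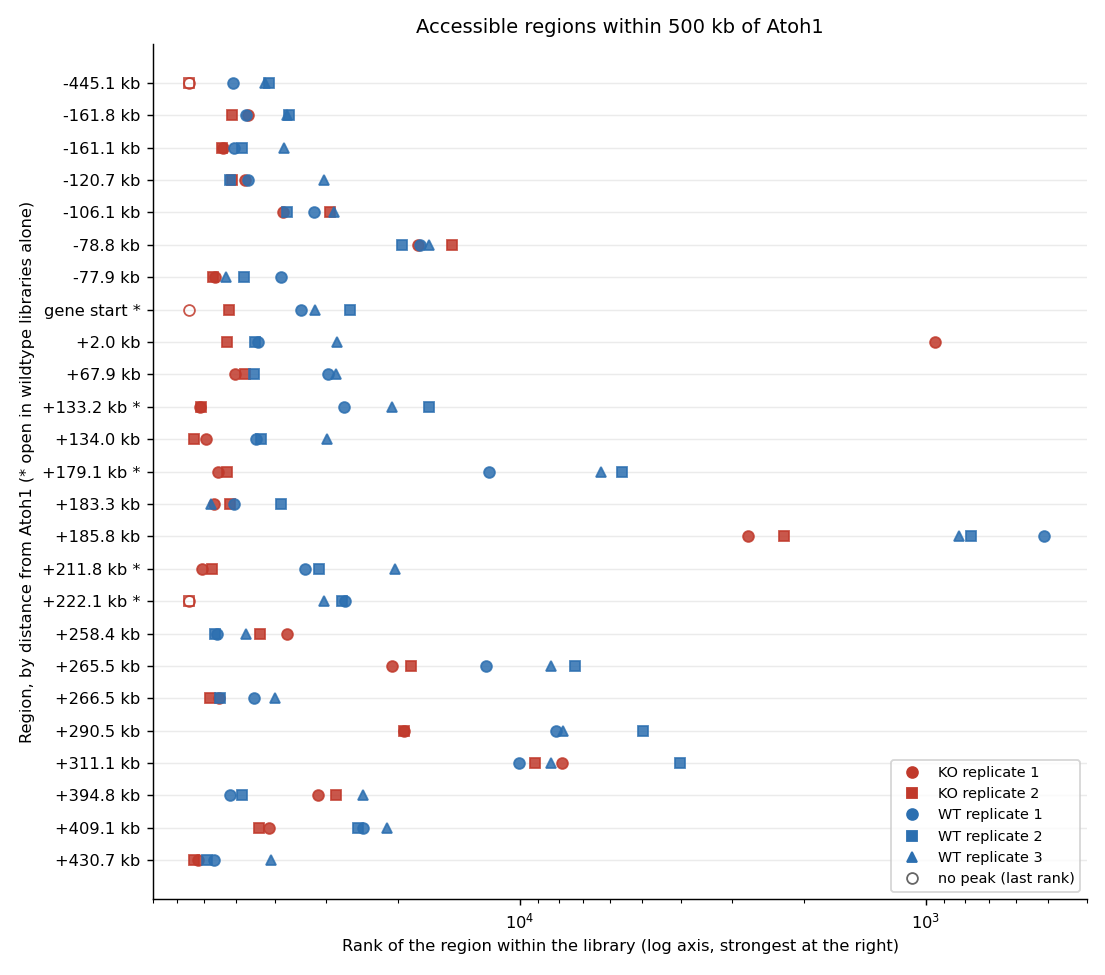
Rank of each of the 25 regions within 500 kb of Atoh1 (log axis, strongest at the right) in the 2 knockout (red) and 3 wildtype (blue) ATAC libraries, ordered by distance from the gene in kb; open symbols mark libraries without a peak and asterisks the 5 regions among the 50000 strongest summits of all wildtype and no knockout library. In 16 regions both red symbols lie to the left of all blue ones, and at +2.0 kb knockout replicate 1 lies far to the right.

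Apart from the enhancer peak of knockout replicate 1, the strongest element in every ATAC library was an intergenic region 185848 bp beyond the gene (64917093 to 64917623). It ranked 2746 and 2234 in knockout and 513, 772 and 830 in wildtype, a log2 rank ratio of 1.84 (wildtype SD of log2 rank 0.37, n = 3). Its folds overlapped, at 17.3 and 18.4 in knockout and 21.7, 18.8 and 17.1 in wildtype. Every library ranked it at 2746 or better, and the genotypes were apart in rank by -log10 p but not in fold. Regions 265542 and 290536 bp beyond the gene were lower in knockout as well, with ranks of 20653 and 18583 in knockout against 12111, 7314 and 8382 in wildtype for the nearer one and 19314 and 19235 in knockout against 8155, 4978 and 7841 in wildtype for the farther one. Their folds overlapped between genotypes, at 22.1 and 19.3 in knockout and 20.0, 17.8 and 13 in wildtype for the nearer one. The farther one had folds of 19.7 and 15.9 in knockout and 18.8, 16.9 and 14.2 in wildtype. At neither region was the fold lower in knockout on average.

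The widest gap lay 179124 bp beyond the gene, at 64910369 to 64911015. This region ranked 55420 and 52614 in knockout and 11897, 5606 and 6327 in wildtype, a log2 rank ratio of 2.85 (wildtype SD of log2 rank 0.58, n = 3). Its folds did not overlap either, at 5.72 and 5.63 in knockout and 12.3, 12.4 and 10.4 in wildtype. Both knockout libraries kept a peak there, so it was weaker and not lost.

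Of the 25 regions, 5 were among the 50000 strongest summits of all 3 wildtype and of no knockout library, a pattern of 7.01% of all regions and of 11.9% of those with at most 6 coding genes, and none had the opposite pattern, which 8.03% of all regions had. These were the start site, the region at 179124 bp and 3 more. The region 133213 bp beyond the gene (64864458 to 64865061) ranked 61202 and 60974 in knockout and 27163, 16691 and 20589 in wildtype, with folds of 4.15 and 3.52 in knockout against 9.83, 9.38 and 7.83 in wildtype. The region at 211757 bp (64943002 to 64943516) ranked 60754 and 57263 in knockout and 33828, 31165 and 20335 in wildtype, and had folds of 4.44 and 5.18 in knockout and 10.0, 7.20 and 8.54 in wildtype. The region at 222098 bp (64953343 to 64953881) had no peak in either knockout list, and folds of 12.1, 7.92 and 6.47 in wildtype. Folds did not overlap at 133213 and 211757 bp, and at 222098 bp wildtype alone had any. With the 25000 strongest summits per library only 1 of the 10 regions then found had this pattern.

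The other regions described beyond the gene were not lower in knockout or lay in named genes. Further intergenic regions there, counted above, were lower as well. A region 258444 bp beyond the gene (64989689 to 64990189) ranked 37459 and 43619 in knockout, above the 55811, 56354 and 47264 of wildtype. The promoter region of Smarcad1, which encodes a chromatin remodeller, ranked 7877 and 9194 in knockout and 10024, 4035 and 8358 in wildtype, with the genotypes mixed. A region in Hpgds, the gene of a prostaglandin D synthase, was lower in knockout, at 41392 and 43921 in knockout against 24339, 25014 and 21207 in wildtype, but its folds of 12.0 and 8.75 in knockout overlapped the 12.1, 7.92 and 7.26 of wildtype. Another region in Hpgds, 394801 bp beyond Atoh1, ranked 31483 and 28314 in knockout and 51865, 48448 and 24296 in wildtype. These ranks overlapped, while its folds of 16.95 and 14.02 in knockout were above the 6.16, 4.80 and 7.26 of wildtype.

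**Figure D4:**
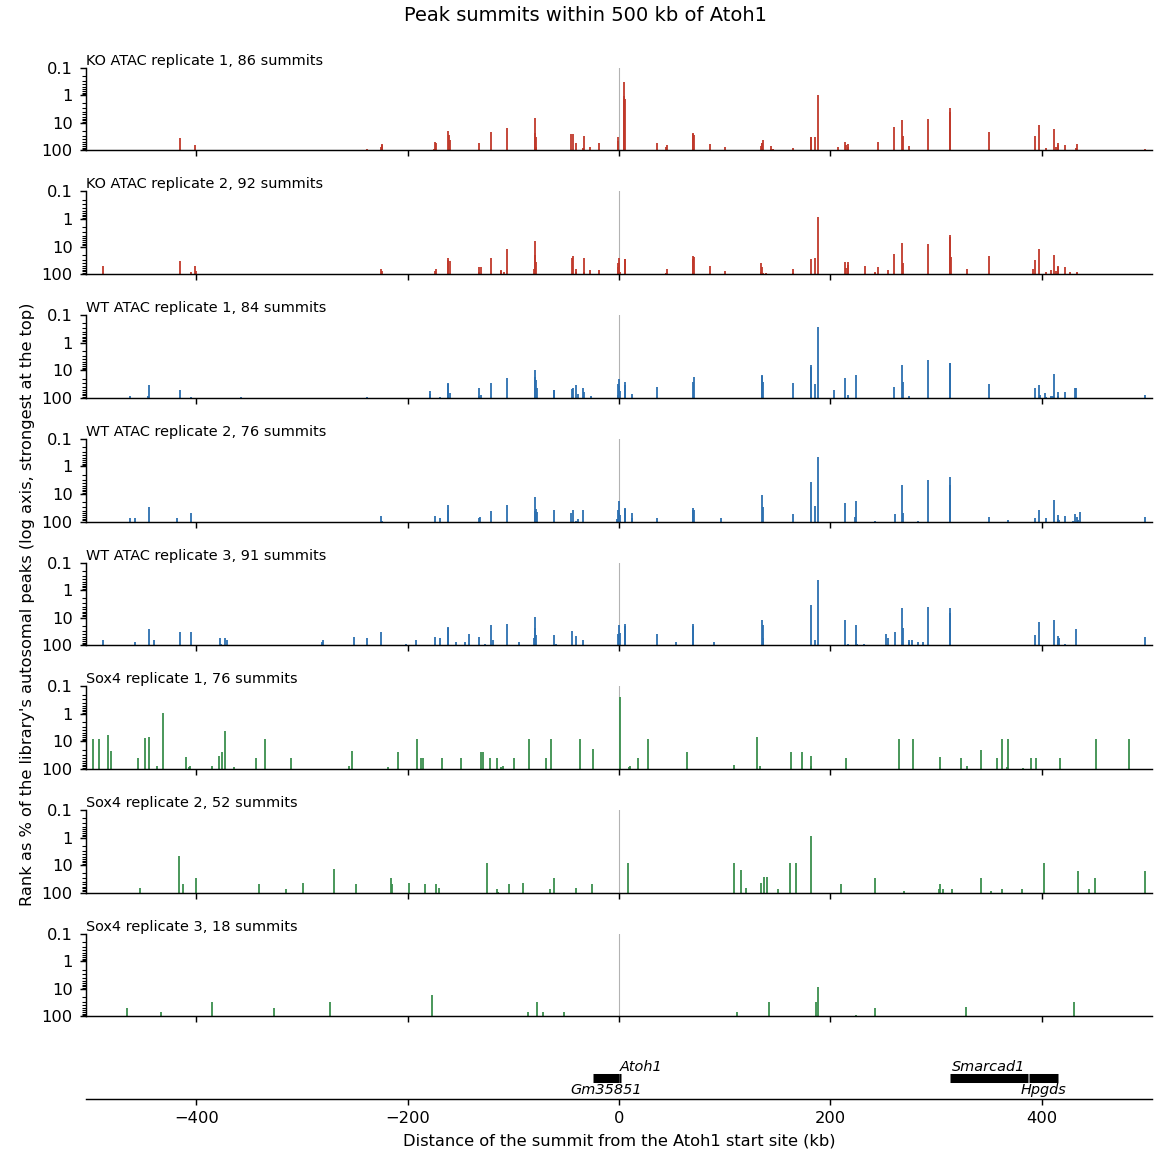
All summits within 500 kb of Atoh1 in the 2 knockout ATAC, 3 wildtype ATAC and 3 Sox4 CUT&RUN libraries, by distance from the start site in kb; the height is the rank as a percent of the autosomal peaks of the library (log axis, strongest at the top) and the bars below are Atoh1, Gm35851, Smarcad1 and Hpgds. The tallest ATAC line, near 188 kb, is the region 185848 bp beyond the gene in every library but knockout replicate 1, where the enhancer peak is taller, and the strongest Sox4 summit lies inside Atoh1 in replicate 1 and near 182 and 188 kb in replicates 2 and 3.

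In number, ATAC peaks around Atoh1 were low in knockout lists and ordinary in wildtype lists. The ATAC libraries had 86 and 92 summits within 500 kb in knockout and 84, 76 and 91 in wildtype, below the lower quartile over coding genes in knockout (113 and 103) and between the quartiles in wildtype (80.0 to 141, 67.0 to 112 and 74.0 to 119). Sox4 summits numbered 76, 52 and 18 in replicates 1 to 3, against medians of 68.0, 30.0 and 18.0 over coding genes.

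The strongest Sox4 peak of each replicate within the span lay at a different element, and each of the 3 overlapped ATAC peaks. In replicate 1 it lay inside Atoh1 (64729426 to 64729982, summit 688 bp into the gene), with a fold of 6.53 and rank 381 of 158444, and was overlapped by ATAC peaks in 4 libraries, all but knockout replicate 1. In replicate 2 it lay 179792 bp beyond the gene (64910586 to 64911278), with a fold of 5.43 and rank 617 of 72417, at the region whose rank fell furthest in knockout. In replicate 3 it lay 186027 bp beyond the gene (64917056 to 64917402), with a fold of 3.48 and rank 3410 of 38914, a rank that 2277 lines shared, at that strong intergenic ATAC element.

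These 3 sites were not shared between replicates at comparable strength. Among the 20000 strongest Sox4 peaks of each replicate (more where values tied), none of the 46 merged windows within 500 kb of Atoh1 was in at least 2 replicates, against 2.92% of all such windows. With all deposited peaks 7 of 136 windows (5.15%) were in 2 replicates, against 4.67% over the autosomes, and none was in all 3. One of the 7 was the element at 179 kb, with rank 617 in replicate 2 and 55165 in replicate 1. A further list deposited with replicate 1, whose peak names carry another library tag, had a peak there at rank 11915, and with that list in place of the replicate's own this window was the single shared site.

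No Sox4 replicate had a peak over the 3′ enhancer region. The lower edge of that region was set by the ATAC peak of knockout replicate 1. Distances from below would be larger to the peak of the other ATAC libraries. In Sox4 replicate 1 the summit nearest to the region was the one inside the gene, 3437 bp below it. In replicate 2 it lay 2005 bp above the region and 5999 bp beyond the gene, with a fold of 4.20 and rank 6002, which 4154 lines shared. In replicate 3 the nearest summit lay 55853 bp below. The further list of replicate 1 had a peak 5964 bp beyond the gene, close to that of replicate 2, with a fold of 3.20. Most Sox4 peaks of the span lay outside accessible regions: 2 of 76 (2.63%), 1 of 52 (1.92%) and 2 of 18 (11.1%) overlapped a region open in all 3 wildtype libraries, against 3.85%, 5.25% and 7.98% of all Sox4 peaks of replicates 1 to 3. Any of the accessible regions was overlapped by 3 of 76 (3.95%), 2 of 52 (3.85%) and 4 of 18 (22.2%) peaks, against 5.74%, 7.4% and 10.6% of all.

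Genes that act upstream of or beside Atoh1 were counted by the same rule, by which 30.4% of all regions were lower and 31.5% higher. These shares varied with the number of coding genes nearby: with at most 6 within 500 kb, 45.9% of regions were lower and 16.2% higher. The genes below were not compared with regions of like gene number, so their balance may partly follow it. Within 100 kb of 19 genes, those of the Notch pathway listed together with Id1, Id2, Id3 and Id4, lay 289 regions. Of these regions 59 (20.4%) were lower and 127 (43.9%) higher in knockout. Notch1, a receptor, had 0 lower and 19 higher of 29, while Rbpj, the DNA-binding partner of Notch, had 6 lower and none higher of 12, and Hey2, a repressor, 5 lower and none higher of 9. Around 17 factors that act on or with Atoh1 lay 190 regions, 53 (27.9%) lower and 51 (26.8%) higher, both near the shares of all regions. Within 500 kb, where Atoh1 had 16 lower and 1 higher of 25, Isl1, a LIM-homeodomain factor, had 15 lower and 2 higher of 26, Sox4 22 and 6 of 36, and Bmi1, a Polycomb gene, 21 and 2 of 37. Other factors of the same list had the opposite balance: Tcf3, which encodes an E protein, had 5 lower and 64 higher of 102, Tcf12, also an E protein gene, 1 and 24 of 36, Lhx3, a LIM-homeodomain gene, 2 and 38 of 61, and Barhl1, a homeobox gene, 2 and 35 of 48. The median share of lower regions over the 19018 coding genes with at least 10 regions was 17.6% (quartiles 6.25 and 36.1).

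Chromatin at marker genes of the tissue was read as a check of the labels, from the best region within 1 kb of each gene. The epithelial genes Epcam and Cdh1 ranked between 2504 and 5934 in knockout and between 1743 and 7546 in wildtype. The otic genes Sox2 and Pax2 had regions in all 5 libraries with overlapping ranks, while Gata3 ranked 11890 and 5502 in knockout and 4216, 2774 and 3909 in wildtype. Gata3 was thus lower in knockout without overlap, and the markers taken for other cells that had a region moved with genotype as well. The mesenchyme genes Tbx18 and Twist1 ranked lower in knockout (40187 and 31124 for Tbx18, against 12879, 5847 and 8804 in wildtype). For Twist1 the ranks were 59200 and 56361 in knockout and 51784, 47870 and 38151 in wildtype. The neuronal gene Neurod1 ranked 20587 and 12571 in knockout and 8474, 6876 and 3899 in wildtype, and Neurog1 had no region. Sox10, taken as a glial marker, ranked higher in knockout (14371 and 13409, against 24221, 39238 and 47105 in wildtype). Whether Sox10 marks glia alone in this tissue was not tested. The tissue was not sorted, so a change in chromatin and a change in the mix of cells cannot be told apart, and the part of these markers in the ranks at Atoh1 was not tested.

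The genes most like Atoh1, by the best rank over the gene and 5 kb on each side in the 5 ATAC libraries (959 and 70868 in knockout, 39293, 29496 and 32589 in wildtype for Atoh1), were Lsmem2, Becn1, Pfdn6, Wdr46 and Nr2e3. They were not close: the distances were 0.893 to 1.04 in log10 rank and, in knockout replicate 2, these 5 genes ranked 8901 to 12751. Without knockout replicate 1, the nearest genes were Arl14epl, Spata9, Gcm1, C1ql3 and Gucy1a1, at distances of 0.060 to 0.084, and none of the first 5 was among them.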

How the data were processed

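ATAC-seq and Sox4 CUT&RUN peak lists were read as deposited. Per the submitters' processing notes, the knockout libraries and wildtype replicate 3 used STAR, MACS2 and deepTools. The notes name STAR and MACS2 for wildtype replicate 1, MACS2 and deepTools for replicate 2, and UMI-tools as well for Sox4. The builds named are mm10 and GRCm38; versions and settings are not given in the sources used here, beyond list names that state a p-value limit and a cap on peaks for the knockout and Sox4 lists. The authors deposited the fold enrichment of each summit as a ratio over the local background of its library, and its significance as -log10 p and -log10 q. One list per library was used, and a further list of Sox4 replicate 1 as an alternative. Coordinates were converted to 1-based positions of mm10. Peaks outside the 19 autosomes were left out because the wildtype lists hold no peaks on X. The single-cell counts were not used.

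Every deposited line was kept and ranked by -log10 p with ties sharing a rank; an earlier treatment of these data merged overlapping lines, which hides the separate summits of the enhancer, and is given as an alternative. The 50000 strongest ATAC summits per library, widened by 250 bp both ways, were merged into regions. A region was called lower or higher where the ranks of the genotypes did not overlap, and named regions were tested with exact permutation tests, two-sided. Sox4 sites needed windows in at least 2 replicates. The procedure was tested on simulated data. Python 3.11.15, numpy 2.4.6, pandas 2.3.3, scipy 1.17.1 and matplotlib 3.10.9 were used. Named regions were those over the gene, those 1 to 10 kb from it and those among the strongest summits of 1 genotype alone. The 6 beyond 100 kb with the best worst rank and the strongest Sox4 peaks were also named, with the 5 genes nearest to Atoh1 in rank. Other regions and genes of the lists were named after their values were seen. Members, lists and motifs were chosen with earlier results of these data known. Some neighbouring regions and 1 marker gene are not reported here.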

Additional observations from a re-analysis of the deposited data

How the results depend on the processing

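Depth was unknown, 2 against 3 libraries allow no exact p below 0.2, and genotype and peak calling cannot be told apart. The count of 16 lower regions moved with the span (10 of 16 regions within 250 kb, 26 of 42 within 1000 kb) and with the 25000 strongest summits (7 of 10). The single higher region became 0 within 250 kb and with the 25000 strongest, 6 ranked by fold and 3 with the 100000 strongest. The 5 wildtype-only regions, among the strongest summits of all wildtype and no knockout libraries, became 1 with the 25000 strongest. Regions of the opposite pattern (knockout-only) numbered 2 ranked by fold, 1 with overlapping lines merged and 1 with the 100000 strongest, against 0. The enhancer ratio of -2.44 became 0.43 ranked by fold and 0.77 with lines merged, with an exact permutation p of 0.2 in place of 0.8. The region was then 893 and 705 bp wide, against 1990 bp. With lines merged, knockout replicate 1 was scored there as without a peak. Ranked by fold, the window of its strongest enhancer summit did not reach the region. Leaving out 1 library gave 13 to 18 lower, 1 to 2 higher, 5 to 6 wildtype-only and 0 to 1 knockout-only regions, ratios of 0.70 to 1.05 at the start site and -5.33 to 0.40 at the enhancer. Where 1 knockout library remained there was no test. With 100-bp windows, full extents or -log10 q of at least 2, all these results kept their direction, with counts within 1.5 times. Shared Sox4 sites numbered 7 with all peaks, 1 ranked by fold (64970935 to 64971520) and 1 with the further list of replicate 1, and 0 to 0 without any 1 replicate. With the 25000 strongest summits no region held the start site.

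Replicate numbers were not shown to pair the libraries: deviations of libraries with the same number correlated at 0.11 and 0.09 over regions. With the number as a replicate block, 17 regions were lower, 2 higher, 5 wildtype-only and 1 knockout-only, and the ratios were 0.96 at the start site and -2.66 at the enhancer.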
